A study of Mus musculus with 30 samples.

Results

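The genes described here are 6 adhesion G protein-coupled receptors (Adgre1, Adgre4, Adgre5, Adgrg1, Adgrg6 and Adgrl2) out of 47643 genes in the table of mouse microglial expression. They were picked by name, with the observation that Adgre4 was lower in Cre-positive groups and that Adgre1, Adgre5 and Adgrg1 could serve as abundant receptors to set it against. The values of the Cre-positive groups against WT therefore chose the genes, and for these 6 genes that comparison is given as a description without a test. In these libraries Adgre1 and Adgrg1 were abundant and Adgre5 was not.

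RNA was sequenced from microglia of 30 mice, 3 months old, and each label gives a genotype, a sex and a mouse number that no other library carries. Homo mice were Bin1 flox/flox with Cx3Cr1-Cre (5 females, 5 males), Het mice were Bin1 wt/flox with Cx3Cr1-Cre (5 females, 6 males), and the mice labelled WT (4 females, 5 males) carried no Cre and are given in the study as Bin1 wt/flox or as WT littermates. Bin1 encodes a membrane-bending protein of the BAR domain class, and the Cre allele sits in the Cx3cr1 gene, which is active in microglia and in other myeloid cells. Every Cre-positive group had both a Cre allele in Cx3cr1 and the loss of at least 1 Bin1 copy, so these cannot be told apart in a comparison with WT. The groups are called WT-F, Het-F, Homo-F, WT-M, Het-M and Homo-M below. The study's methods describe cells sorted by CD11b and CD45 from adult brain, whereas the sample records speak of microglia grown from newborn mice, and the methods were followed here.

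Adhesion GPCRs have a long extracellular part with adhesion domains and a fold in which the receptor cuts itself into pieces that stay together, and a short tethered peptide next to the cut can act as the agonist. Adgre1 encodes F4/80, the classical surface marker of mouse macrophages. Adgre5 encodes CD97, a leukocyte receptor that binds CD55, and Adgre4 encodes EMR4, a myeloid receptor of the same EGF-repeat subfamily. Adgrg1 encodes GPR56, which binds collagen III and transglutaminase 2 (Tgm2), signals through G12 and G13 proteins to RhoA, and is a marker of yolk sac-derived microglia. Adgrg6 encodes GPR126, known for its part in Schwann cell myelination, and Adgrl2 encodes latrophilin 2, a synaptic receptor for teneurins and FLRT proteins.

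The genes lie on 4 chromosomes of GRCm38. Adgre4 (ENSMUSG00000032915) lies on the forward strand of chromosome 17 from 55749984 to 55853662, with 1 annotated transcript of 17 exons. Adgre1 (ENSMUSG00000004730) lies on the same strand of chromosome 17 from 57358691 to 57483527. Adgrg1 (ENSMUSG00000031785) lies on the forward strand of chromosome 8 from 94974751 to 95014217, and Adgre5 (ENSMUSG00000002885) on the reverse strand of chromosome 8 from 83723251 to 83741326. Adgrl2 (ENSMUSG00000028184) lies on the reverse strand of chromosome 3 from 148815583 to 148990555, and Adgrg6 (ENSMUSG00000039116) on the reverse strand of chromosome 10 from 14402583 to 14545659.

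Promoter sequence was at hand for 4 of the 6 genes, from RefSeq on GRCm38.p6. It is shown for Adgre4, the gene that was lower in Cre-positive groups, and for Adgrg1, the most abundant of the 6. For Adgrg1 the sequence of 2 start sites was at hand, called upstream and downstream here. The annotated gene, with 16 transcripts, begins before both. Each run gives the 250 bases before a start site, on the forward strand and 5′ to 3′, with matches to 3 short motifs of factors that act in myeloid cells in capitals. These motifs are AGGAAGT for ETS factors such as PU.1, TGACTCA for AP-1 and TGTGGT for RUNX factors. They were searched on both strands and were chosen after the sequences had been read.
Adgre4, chr17:55749734-55749983: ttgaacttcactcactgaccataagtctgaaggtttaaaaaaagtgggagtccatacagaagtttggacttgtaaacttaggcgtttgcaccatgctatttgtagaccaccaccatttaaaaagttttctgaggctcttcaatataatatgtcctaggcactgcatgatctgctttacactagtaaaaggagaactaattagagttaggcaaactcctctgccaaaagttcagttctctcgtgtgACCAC
Adgrg1, upstream start site, chr8:94976859-94977108: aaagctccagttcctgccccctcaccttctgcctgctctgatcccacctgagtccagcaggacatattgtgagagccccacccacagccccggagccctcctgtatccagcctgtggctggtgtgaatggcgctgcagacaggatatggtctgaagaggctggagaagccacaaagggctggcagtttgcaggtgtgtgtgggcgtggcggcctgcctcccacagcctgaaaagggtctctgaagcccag
Adgrg1, downstream start site, chr8:94984149-94984398: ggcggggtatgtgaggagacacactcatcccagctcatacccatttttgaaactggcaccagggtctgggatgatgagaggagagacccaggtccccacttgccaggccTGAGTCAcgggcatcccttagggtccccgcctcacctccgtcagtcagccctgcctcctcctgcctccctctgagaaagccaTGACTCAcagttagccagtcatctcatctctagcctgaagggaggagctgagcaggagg

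The Adgre4 run had a GC content of 39.6%, against 60.8% and 59.2% for the Adgrg1 runs. At its end the Adgre4 run holds a RUNX match on the reverse strand whose last base is the first of the transcript, and an ETS match on the reverse strand begins at base 42 of the gene. The downstream Adgrg1 run holds 2 AP-1 matches, which start 141 and 59 bases before the start site. The upstream Adgrg1 window held none of the 3 motifs. Of 32851 mouse promoter windows of 300 bases (250 before and 50 after the start), 9.35% held the ETS motif, 5.20% the AP-1 motif and 16.8% the RUNX motif, so each is common and a match is only a description of the letters.

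Levels are given as FPKM, fragments scaled to the length of the transcript and to the mapped fragments of the library, which allows genes of different length to be set side by side. Over the 30 libraries Adgrg1 averaged 344 FPKM and ranked 139th of the 16897 genes with a mean of at least 0.1 FPKM. Adgre1 averaged 214 FPKM and ranked 247th. Both lay in the top 1.5% of these genes, at 0.823% and 1.46% from the top. Adgrl2 averaged 8.53 FPKM, Adgre4 1.33, Adgre5 0.230 and Adgrg6 0.0111. Adgre5 was listed at 0 in 2 libraries, and Adgrg6 in 27.

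Among the 30 adhesion GPCR genes of the mouse, taken as a list of the whole family, Adgre1 and Adgrg1 together held 96.9% of the summed mean FPKM. A mean of at least 1 FPKM was reached by 5 genes, of which 4 are among the 6 above and the other was Adgra3 (6.20 FPKM), also called GPR125. The mean was below 0.1 FPKM for 21 genes, and 2 of these, Adgrd1 and Adgrf1, were at 0 in all 30 libraries.

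**Figure D1:**
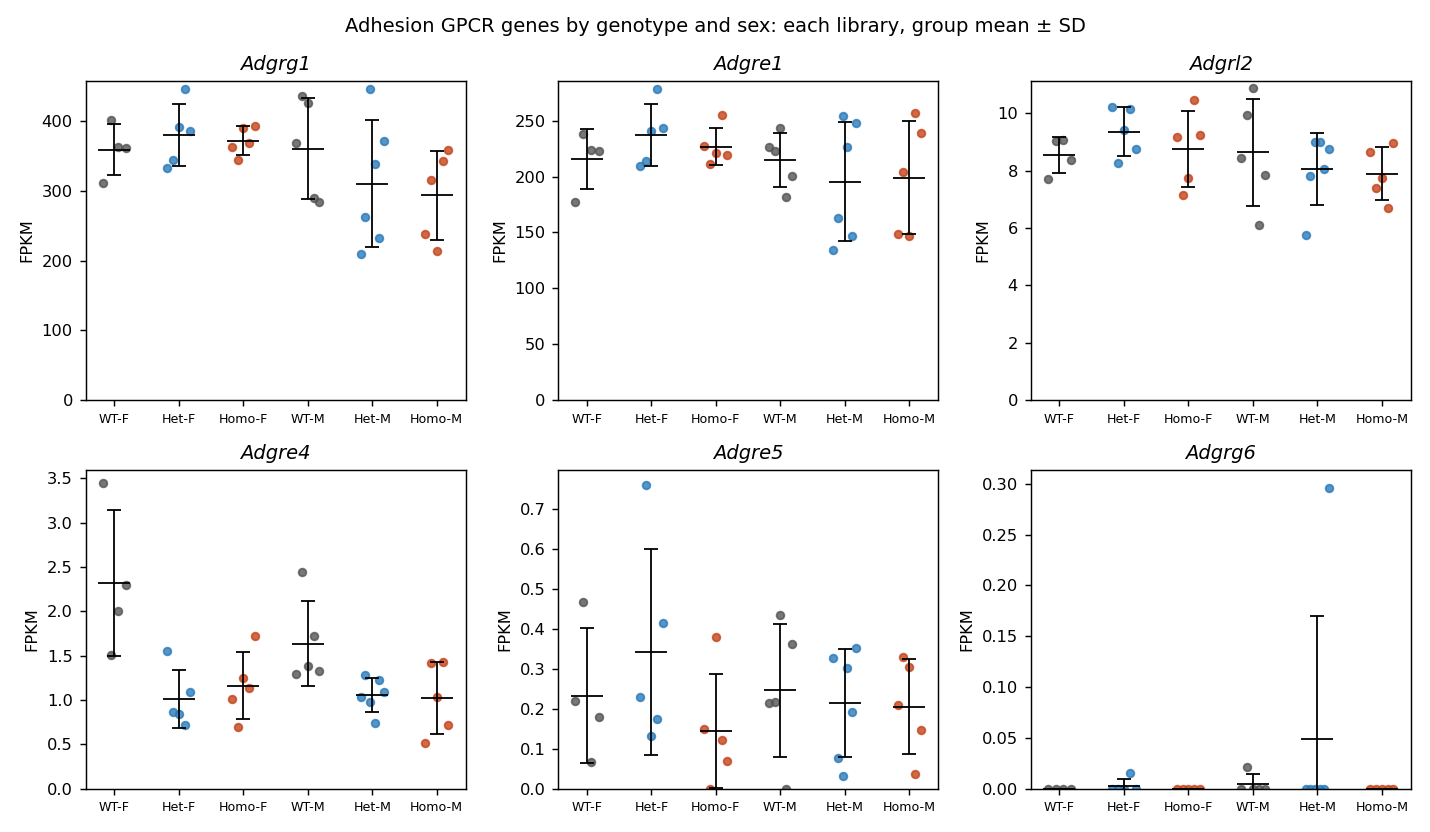
FPKM of the 6 receptor genes in each library (points), by genotype and sex on the horizontal axis, with the group mean and SD as horizontal and vertical lines; each panel has its own linear axis from 0. Adgre4 is the panel in which both WT groups lie highest, with means of 2.32 and 1.64 FPKM against 1.02 to 1.16 in the Cre-positive groups, while Adgrg1, Adgre1 and Adgrl2 overlap in all groups and Adgrg6 is above 0 in 3 libraries.

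Some facts of the whole series bear on these values. P2ry12 and Tmem119, which define microglia, ranged from 3509 to 5359 and from 1424 to 2581 FPKM over the 30 libraries. Depth relative to the median library was read from the steps between low values and ranged from 0.669 to 1.41. Bin1 was 253 ± 12.5 FPKM in WT-F (SD, n = 4) and 258.3 ± 21.4 in WT-M (SD, n = 5), 41.2 ± 1.90 in Homo-F and 49.7 ± 6.82 in Homo-M (SD, n = 5 each). The libraries labelled Het-F-0206 and Het-M-0199 had 42.7 and 51.8 FPKM of Bin1, as Homo libraries do and against their labels, and the library labelled Het-F-0206 also had Cx3cr1 at 13.9 FPKM where the lowest of the other libraries had 609.98. The Adgre4 differences of the Het groups from WT are given with and without them. The differences between Homo and Het mice, and between the sexes in Het mice, are given with them only. Mouse numbers up to that of WT-F-0122 (called early) were carried by 3 Homo-M, 2 Het-M and 1 WT-F mice and the other 24 had numbers from that of WT-M-0176 on (late), so that in males the number range goes partly with genotype.

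Adgre4, the receptor EMR4 of myeloid cells, was lower in the Cre-positive groups than in WT of the same sex. In WT-F the 4 libraries had 1.51, 2.01, 2.30 and 3.45 FPKM (mean 2.32 ± 0.822, SD, n = 4). In Het-F the 5 libraries had 0.719, 0.846, 0.869, 1.09 and 1.55 FPKM (mean 1.02 ± 0.329, SD, n = 5). In Homo-F they had 0.694, 1.01, 1.14, 1.25 and 1.72 FPKM (mean 1.16 ± 0.376, SD, n = 5). The highest library of each Cre-positive female group reached the lowest WT-F library, and all others lay below it. The exception depends on scaling: as deposited, the library Het-F-0205 stood at 1.55 against 1.51 FPKM in the lowest WT-F library, and after scaling between libraries every Het-F library was below every WT-F library.

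In males the same gene showed a smaller gap. The WT-M libraries had 1.30, 1.33, 1.39, 1.72 and 2.44 FPKM (mean 1.64 ± 0.480, SD, n = 5). The 6 Het-M libraries ranged from 0.747 to 1.28 FPKM with a median of 1.07 (mean 1.06 ± 0.192, SD, n = 6), and all lay below the lowest WT-M library, the nearest at 1.28 against 1.30 FPKM. The Homo-M libraries had 0.518, 0.717, 1.04, 1.42 and 1.43 FPKM (mean 1.02 ± 0.410, SD, n = 5), of which 3 lay below the lowest WT-M library and the other two within the WT-M range. Over all groups WT libraries spanned 1.30 to 3.45 FPKM (n = 9) and Cre-positive libraries 0.518 to 1.72 FPKM (n = 21).

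Ordered by mean, Adgre4 ran from WT-F over WT-M, Homo-F, Het-M and Homo-M to Het-F, and the libraries of each pair of neighbours in this order overlapped. The ratio of mean scaled FPKM to WT of the same sex was 0.437 in Het-F, 0.505 in Homo-F, 0.612 in Het-M and 0.595 in Homo-M. On the log2(FPKM + 0.1) scale, on which low genes appear to change less than they do, the difference from WT was -1.11 (standard error 0.29) in Het-F and -0.93 (standard error 0.29) in Homo-F. It was -0.63 (standard error 0.26) in Het-M and -0.75 (standard error 0.28) in Homo-M. The Het and Homo groups of a sex share their WT libraries, so these are not separate observations. In bulk RNA, fewer cells that express the gene and less RNA in each cell cannot be told apart.

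After scaling, the Adgre4 libraries of Het-F and of Het-M did not overlap those of WT of their sex. Of all 16897 genes in the fit, the share with every library lower than every WT library was 0.752% in Het-F, 0.361% in Het-M, 0.698% in Homo-F and 1.75% in Homo-M. These shares are background only, since Adgre4 was chosen for this difference.

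Single WT libraries carried part of the size. The library WT-F-0122, the only early number among the females, had the highest Adgre4 value of all, and without it the difference was -0.92 in Het-F and -0.74 in Homo-F. Without the highest WT-M library, WT-M-0177, it was -0.47 in Het-M and -0.59 in Homo-M. Without the lowest Homo-M library, Homo-M-0093, the Homo-M difference was -0.53. It was -0.60 among late numbered mice, with 2 Homo-M libraries. Leaving out the library labelled Het-F-0206 gave a Het-F difference of -1.06, and leaving out that labelled Het-M-0199 as well gave -0.55 in Het-M. The sign stayed negative in each of these.

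Because Adgre4 has 1 annotated transcript, its FPKM could be traced back to whole fragments. Multiplied by relative depth, the values were whole multiples of 0.0289 FPKM in 30 of 30 libraries, with a largest deviation of 0.00611 fragments against a tolerance of 0.15. The recovered numbers ran from 12 fragments in the library Homo-M-0093 (95% Poisson interval 6.20 to 21.0) to 160 in the library WT-F-0122 (136 to 187). Summed over libraries there were 383 fragments in WT-F, 172 in Het-F, 191 in Homo-F, 334 in WT-M and 170 in Homo-M, and the 95% Poisson interval of the Het-M sum was 170.5 to 226.5. These intervals cover counting error only. The sums are not adjusted for depth, and WT libraries were deeper. Median relative depth was 1.12 in WT-F and 1.18 in WT-M, against 0.916 to 1.00 in the Cre-positive groups.

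Counting error at the median library would give a coefficient of variation of 10.9% in WT-F and 12.4% in WT-M, and of 16.4% to 17.7% in the 4 Cre-positive groups. The variation between libraries was 35.4% in WT-F, 29.4% in WT-M, 32.4% in Het-F, 32.3% in Homo-F and 40.0% in Homo-M. In Het-M it was 18.1% against a counting error of 17.3%.

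**Figure D2:**
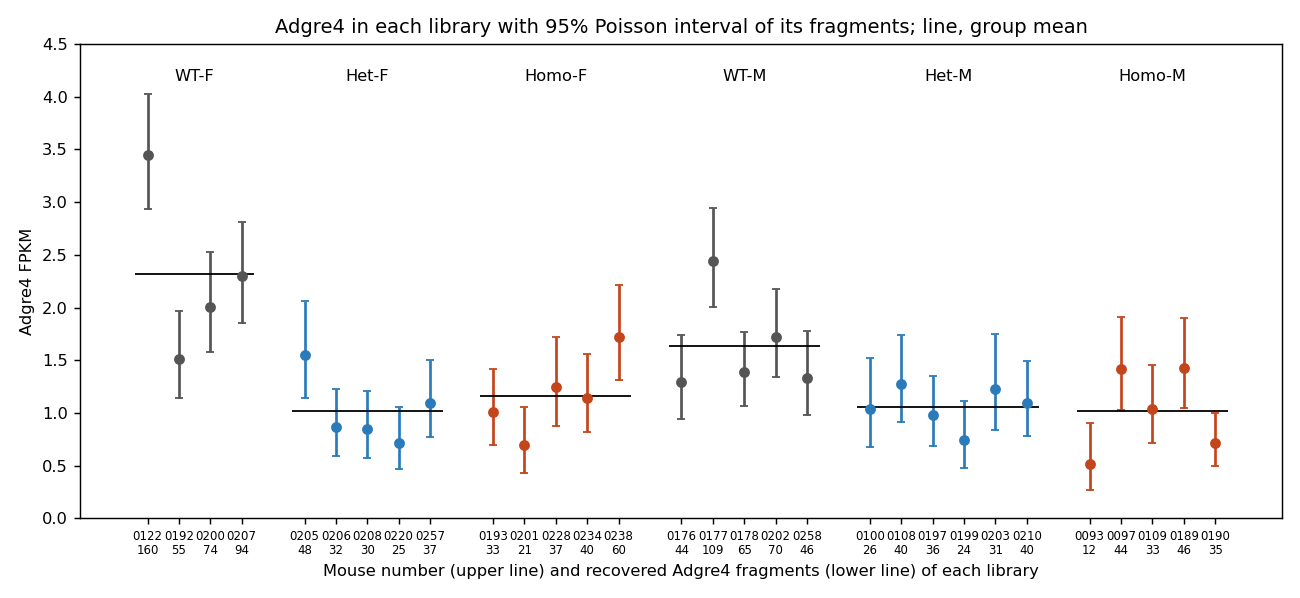
Adgre4 FPKM of each library (points, vertical axis) with the 95% Poisson interval of its fragments, arranged by group along the horizontal axis, which prints the mouse number and the recovered fragments; black lines are group means. The library WT-F-0122, with 160 fragments, stands above all others, and the library Homo-M-0093, with 12 fragments, is the lowest.

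Border macrophages of the meninges and vessels carry receptors of the same subfamily, and their 7 markers were also present at low levels. Their summed FPKM ran from 17.9 to 31.7 in WT-F, 13.001 to 36.0 in Het-F and 11.9 to 39.7 in Homo-F. In males it ran from 17.5 to 47.0 in WT-M, 12.9 to 23.0 in Het-M and 12.4 to 29.7 in Homo-M. The medians were 24.9 and 42.2 in the WT groups and 15.0 to 23.3 in the Cre-positive groups, so this sum was lower beside Adgre4, with overlap. Over the 30 libraries its Spearman correlation with Adgre4 was 0.443, and 0.263 when each group was centred. The markers did not all go one way. Mrc1, Lyve1, Pf4, Cbr2 and F13a1 had lower means in each Cre-positive group than in WT of the same sex. Ms4a7 was not lower in females, at 2.37 FPKM in WT-F, 2.43 in Het-F and 2.72 in Homo-F. Cd163 was higher in Homo-F than in WT-F, at 0.889 against 0.829 FPKM. Mrc1, Cd163, Lyve1 and Pf4, which define these cells, were above 0 in all 30 libraries, and their part in the Adgre4 values was not tested.

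Markers of neutrophils and choroid plexus also differed. The median sum of 7 neutrophil markers was 40.3 FPKM in WT-F and 70.4 in WT-M, against 22.8 in Het-F, 10.6 in Homo-F, 11.9 in Het-M and 0.0923 in Homo-M, and the groups overlapped. The sum of 3 choroid plexus markers had a median of 12.2 FPKM in WT-F and 72.4 in WT-M and of 0.834 to 11.4 in the Cre-positive groups. Over the 30 libraries the neutrophil and choroid plexus sums had Spearman correlations of 0.304 and 0.132 with Adgre4, and of -0.0107 and -0.190 when each group was centred. The sum of 7 monocyte markers had medians of 6.38 and 5.53 FPKM in WT and of 5.96 to 6.97 in the Cre-positive groups, and its correlation with Adgre4 was 0.164, and 0.400 with groups centred.

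Among the 7 monocyte markers, Ly6c2 and Ace had higher means in both WT groups than in every Cre-positive group. Ccr2 and Treml4 went the other way, with higher means in each Cre-positive group than in WT of the same sex. Ccr2 was at 3.23 FPKM in WT-F, 3.35 in Het-F and 3.82 in Homo-F. In males it was at 3.46 in WT-M, 4.31 in Het-M and 4.87 in Homo-M. Plac8, Nr4a1 and Spn had no common direction. Ly6c2, which marks classical monocytes, had means of 0.527 FPKM in WT-F and 0.541 in WT-M and of 0 to 0.178 in the Cre-positive groups. It was at 0 in 1 of 4 WT-F, 1 of 5 WT-M, 2 of 5 Het-F, 3 of 5 Homo-F, 6 of 6 Het-M and 4 of 5 Homo-M libraries. Ace, which encodes an enzyme of the renin-angiotensin system, had means of 0.357 FPKM in WT-F and 0.761 in WT-M against 0.00824 to 0.178 in the Cre-positive groups, and was at 0 in some libraries of every group. Their part in the Adgre4 values was not tested.

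The comparisons that did not choose the genes were tested with limma, on the scaled log2 values of all 16897 genes, and a gene was called at a Benjamini-Hochberg adjusted p below 0.05 with a fold above 1.5. Of the 6 receptors, 5 passed the filter on low values, since Adgrg6 was below a mean of 0.1 FPKM. A second Bin1 copy lost, the comparison of Homo with Het mice, gave no call among the 5 in males (0 of 5 at an unadjusted p below 0.05) or in females (0 of 5). Over all genes 0% were called in males, where 651 genes had an unadjusted p under 0.05, and 0.0118% in females, where 348 had. The Het groups here include the libraries labelled Het-F-0206 and Het-M-0199, whose Bin1 was at the level of Homo libraries. Bin1 itself was not called in males, at -1.21 (standard error 0.25, adjusted p = 0.627 by limma). It was called in females, at -1.55 (standard error 0.26, adjusted p = 0.0145 by limma). In males the test thus missed the deleted gene, so the lack of a call there does not show a lack of effect. Adgre4 differed between Homo-M and Het-M by -0.12 (standard error 0.26, adjusted p = 0.999) and between Homo-F and Het-F by 0.18 (standard error 0.28, adjusted p = 1 by limma).

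Sex was compared within each genotype. No receptor was called between WT-M and WT-F (0 of 5, with 0 at an unadjusted p below 0.05), between Het-M and Het-F (0 of 5, with 2) or between Homo-M and Homo-F (0 of 5, with 1), where 0.0473%, 0.0533% and 0.397% of all genes were called by limma. WT-M differed from WT-F in Adgre4 by -0.46 (standard error 0.29, adjusted p = 1 by limma). The value was -0.27 when WT-F-0122 was left out. Adgrg1 differed between Homo-M and Homo-F by -0.46 (standard error 0.21, adjusted p = 0.185 by limma) and between Het-M and Het-F by -0.41 (standard error 0.20, adjusted p = 0.324). Among late numbered mice, with 2 Homo-M libraries, these differences were -0.09 and -0.19.

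Whether the gap to WT differed between the sexes was read as an interaction, without a test for the receptors, since these gaps chose them. For Adgre4 the male gap minus the female gap was 0.18 (standard error 0.40) in Homo mice and 0.48 (standard error 0.39) in Het mice. These values give no verdict on a difference between the sexes. Over all genes, limma called 0% in both interactions, while 1569 and 767 genes had an unadjusted p under 0.05.

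Adgrg1 (GPR56) and Adgre1 (F4/80) are the receptors that microglia of every group carried in quantity. Adgrg1 was at 359 ± 37.1 FPKM in WT-F (SD, n = 4), 380 ± 44.7 in Het-F and 372 ± 20.2 in Homo-F (SD, n = 5 each). In males it was at 360 ± 72.1 in WT-M (SD, n = 5), 310 ± 90.9 in Het-M (SD, n = 6) and 293 ± 64.3 in Homo-M (SD, n = 5). Female groups overlapped throughout, and in males 3 of 6 Het-M and 2 of 5 Homo-M libraries lay below the lowest WT-M library. The log2 difference from WT was 0.08 (standard error 0.22) in Het-F, 0.05 (0.22) in Homo-F, -0.32 (0.20) in Het-M and -0.39 (0.21) in Homo-M.

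Adgre1 showed the same picture. It was at 216 ± 26.5 FPKM in WT-F (SD, n = 4), 237 ± 27.6 in Het-F and 227 ± 16.8 in Homo-F (SD, n = 5 each), and at 215 ± 24.1 in WT-M (SD, n = 5), 195 ± 53.4 in Het-M (SD, n = 6) and 198.9 ± 50.5 in Homo-M (SD, n = 5). The log2 difference from WT was 0.13 (standard error 0.21) in Het-F, 0.07 (0.21) in Homo-F, -0.25 (0.19) in Het-M and -0.23 (0.20) in Homo-M. Among late numbered mice the male differences of Adgrg1 were -0.09 in Het and -0.02 in Homo, and those of Adgre1 were -0.02 in Het and 0.21 in Homo, so that the lower male values did not hold within the late range. The Adgre4 differences within that range were -0.64 in Het-M and -0.60 in Homo-M. Late Homo-M is only 2 libraries, with Adgre4 at 0.717 and 1.43 FPKM, the higher of them within the WT-M range.

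Adgrl2 (latrophilin 2) had a coefficient of variation of 14.3% over the 30 libraries, beside 17.3% for Adgre1 and 19.1% for Adgrg1. Its group means ran from 7.89 ± 0.922 FPKM in Homo-M to 9.36 ± 0.856 in Het-F (SD, n = 5 each), with 8.55 ± 0.632 in WT-F (SD, n = 4) and 8.64 ± 1.86 in WT-M (SD, n = 5). Its differences from WT were 0.12 (standard error 0.17) in Het-F, 0.02 (0.17) in Homo-F, -0.16 (0.15) in Het-M and -0.19 (0.16) in Homo-M. All 4 comparisons overlapped in range.

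Adgre5 (CD97) was close to the limit of detection. Its group means ran from 0.144 ± 0.143 FPKM in Homo-F (SD, n = 5) to 0.342 ± 0.258 in Het-F (SD, n = 5), with single libraries from 0 to 0.761, and the highest was the library labelled Het-F-0206. Its differences from WT had standard errors of 0.47 to 0.52 and were 0.37 in Het-F, -0.50 in Homo-F, -0.13 in Het-M and -0.15 in Homo-M. With that library left out the Het-F difference was 0.09. The scatter of Adgre5 thus leaves no order of the groups. Adgrg6 (GPR126) was above 0 in 3 libraries only, at 0.0154 FPKM in the library Het-F-0220, 0.0218 in the library WT-M-0177 and 0.296 in the library Het-M-0210.

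**Figure D3:**
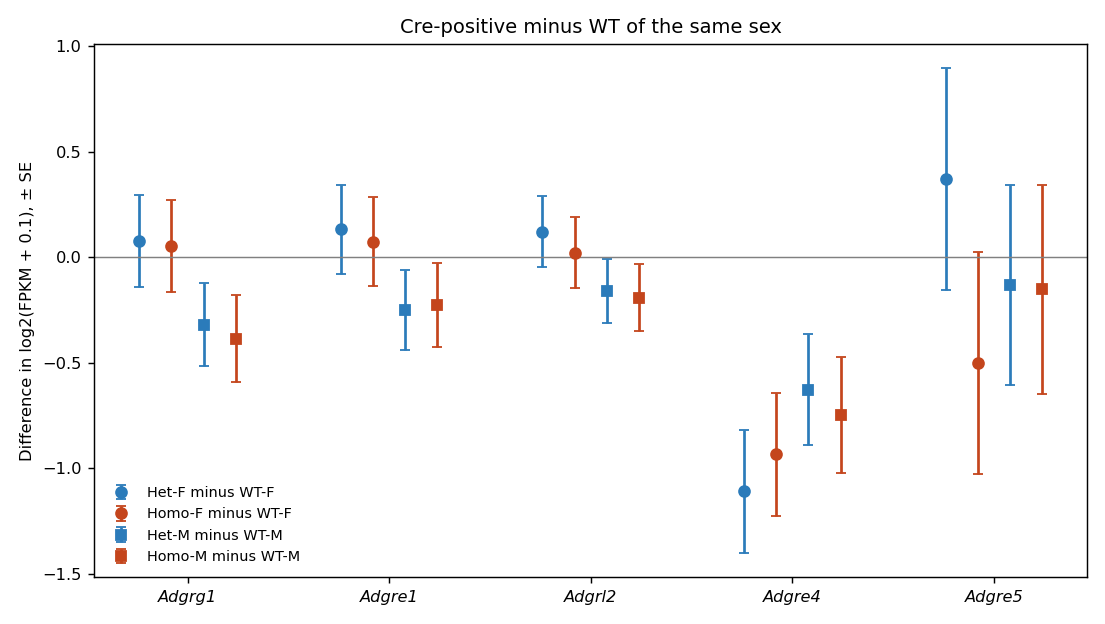
Difference in log2(FPKM + 0.1) between each Cre-positive group and WT of its sex (vertical axis) for the 5 receptors in the fit, with standard errors as bars; circles are females and squares males, blue Het and red Homo. Adgre4 is the gene whose 4 values all lie below 0, from -1.11 to -0.63. The genes were chosen on this comparison, so it carries no test.

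Adgre1 and Adgrg1 moved together from library to library. The ratio of Adgrg1 to Adgre1 FPKM was 1.61 ± 0.126 (SD, n = 30) and stayed between 1.33 and 1.96, a coefficient of variation of 7.82%, while each gene on its own varied by 17.3% and 19.1%. Pearson's r between their log2 levels was 0.954 and Spearman's correlation 0.864 over 30 libraries, and r was 0.929 without the 2 libraries farthest from the median of Adgre1. It was 0.887 over the 24 late libraries and 0.953 with each group centred on its mean. Adgre4 did not follow them: its r with Adgre1 was 0.146 (Spearman 0.0336) and with Adgrg1 0.251 (Spearman 0.178). The libraries share their sorting, depth and scaling, so these are descriptions and no p is given.

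**Figure D4:**
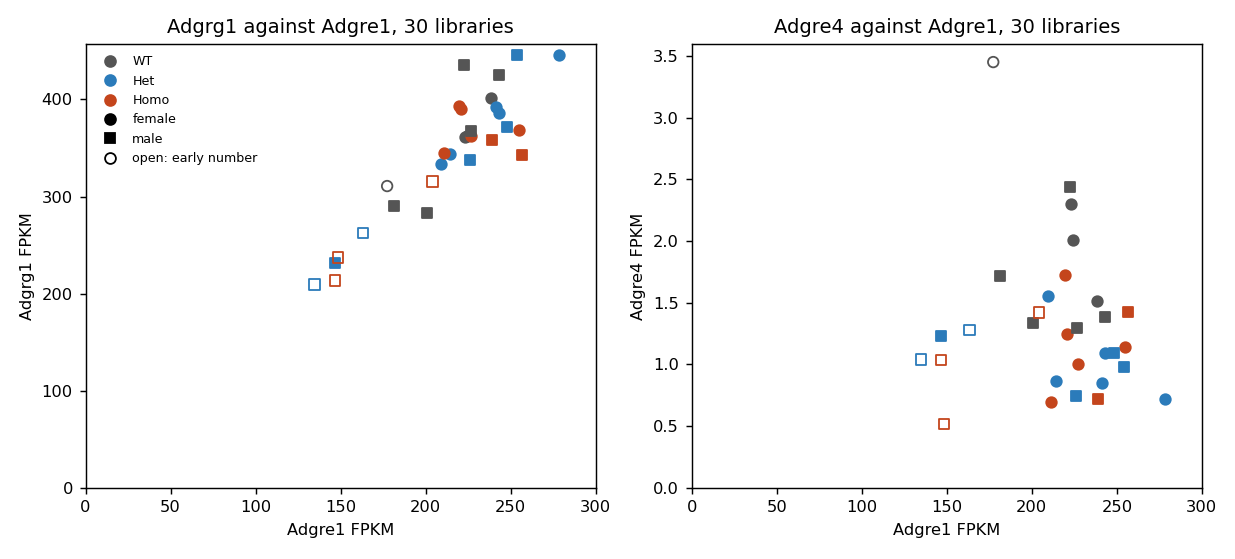
Adgrg1 (left) and Adgre4 (right) FPKM against Adgre1 FPKM in the 30 libraries; grey is WT, blue Het and red Homo, circles are females, squares males, and open symbols early mouse numbers. Adgrg1 rises along with Adgre1 at a ratio near 1.61, whereas Adgre4 spreads from 0.518 to 3.45 FPKM without following Adgre1.

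The genes most like each receptor over the 30 libraries were ranked by Spearman's correlation among the genes with a mean of at least 1 FPKM. For Adgrg1 they included Lrp10 (0.977), Plcg2 (0.970), Laptm5 (0.969) and Gna12 (0.968), and for Adgre1 Serinc3 (0.932), Tgfbr2 (0.928), App (0.928), Ptbp1 (0.911) and Rtn4rl1 (0.909). Laptm5 encodes a lysosomal protein, and Gna12 the G12 protein through which GPR56 signals. For Adgrl2 the leading genes were Creb3l2 (0.879), Atmin (0.855), Man1a (0.850), Pacs1 (0.849) and Mboat7 (0.844).

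Adgre4 had weaker likenesses, with Tspan13 (0.711), Mgl2 (0.691), Mageh1 (0.690), Btbd3 (0.687) and Cx3cr1 (0.658). The groups were not centred, so these correlations include the difference from WT for which Adgre4 was chosen. All of these genes were also lower than WT in every Cre-positive group on the log2 scale, Mgl2 by -2.27 in Het-F and -0.91 in Homo-F. Their likeness to Adgre4 within groups was not tested. Cx3cr1 encodes the fractalkine receptor and carries the Cre allele in each Cre-positive group, and Mgl2 encodes a lectin of macrophages and dendritic cells. Adgre5 was the least alike to others, with Rgs12 (0.620) first and Rbfox1 (0.546), Rmi1 (0.536), Mbd2 (0.515) and Aldh4a1 (0.501) after it.

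Male Het and Homo mice with early and late numbers were compared with genotype kept in the model, and this comparison did not choose the genes. Adgre1 was at 159 ± 26.9 FPKM in the 5 early libraries (SD, n = 5; 135, 147, 149, 163 and 204) and at 228.3 ± 41.6 in the 6 late libraries (SD, n = 6; lowest 147, median 243, highest 256). The late library Het-M-0203, at 147, lay below 4 of the 5 early libraries, and the other 5 late libraries, at 226 to 256, lay above every early one. Adgre1 fell by 0.70 in log2 units in early against late numbers (standard error 0.19, adjusted p = 0.0363 by limma with Benjamini-Hochberg adjustment over all genes). It was the 1 receptor of 5 that was called, where 7.42% of all genes were called.

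Adgrg1 was at 248 ± 43.4 FPKM in the early (SD, n = 5) and 348 ± 68.9 in the late libraries (SD, n = 6), a log2 difference of -0.65 (standard error 0.20, adjusted p = 0.0524 by limma). Adgrl2 differed by -0.33 (standard error 0.15, adjusted p = 0.137), Adgre4 by -0.09 (standard error 0.30, adjusted p = 0.850) and Adgre5 by 0.36 (standard error 0.44, adjusted p = 0.595). The median over the 5 receptors was -0.33, beside 0.10 over all genes. That overall median was 0.23 without scaling and -0.04 with quantile normalization, where Adgre1 differed by -0.56 and -0.63. Of 1253 genes called, 1008 were higher in early numbers; without scaling it was 1527 of 1583 and with quantile normalization 703 of 1044.

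The Adgre1 call was not stable against single libraries. In 11 fits that each left out 1 library the difference stayed between -0.82 and -0.63 and the adjusted p ranged from 0.00319 to 0.137, and the call held only without Het-M-0203 or Homo-M-0097. It was lost without each of the other 9 libraries, Het-M-0100, Het-M-0108, Het-M-0197, Het-M-0199, Het-M-0210, Homo-M-0093, Homo-M-0109, Homo-M-0189 and Homo-M-0190. Without the libraries labelled Het-F-0206 and Het-M-0199 it was -0.69 (adjusted p = 0.0646 by limma).

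Other measures moved with number range. The microglial marker Tmem119 was at 1424 to 2004 FPKM in the early (median 1598) and 1751 to 2581 in the late male Cre-positive libraries (median 2158), and P2ry12 at 3607 to 4811 (median 3881) and 4030 to 5359 (median 4964). The 4 oligodendrocyte lineage markers summed to 18.6 to 106 FPKM in early and 12.9 to 28.3 in late libraries, the 4 astrocyte markers to 2.43 to 26.6 and 1.88 to 7.25, and the 7 monocyte markers to 6.97 to 10.1 and 4.74 to 6.71. The shallowest libraries of the series, at relative depths of 0.669 and 0.723, were both early males, and the next was the late Het-M-0203 at 0.727. Their part in the lower Adgre1 level was not tested.

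**Figure D5:**
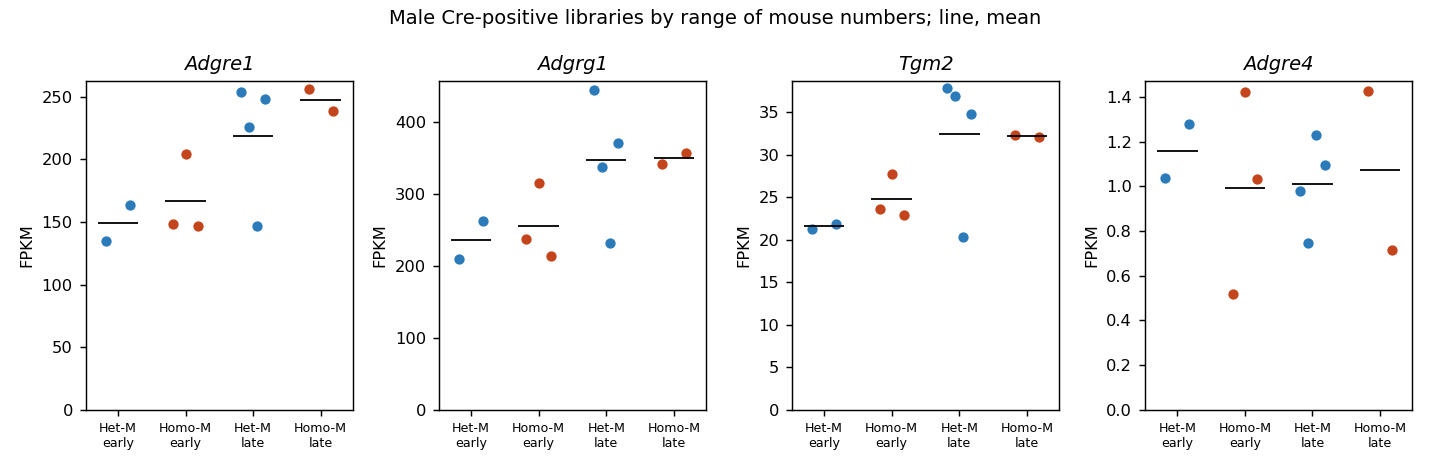
FPKM of Adgre1, Adgrg1, Tgm2 and Adgre4 in the 11 male Cre-positive libraries, by genotype and range of mouse number on the horizontal axis; points are libraries and black lines means. Adgre1, Adgrg1 and Tgm2 are lower in early numbered libraries, with 1 late Het library (Het-M-0203) among them, and Adgre4 runs from 0.518 to 1.42 FPKM in early and from 0.717 to 1.43 in late libraries.

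Ligands and partners of these receptors were few in the cells. Of 15 extracellular partner genes on a fixed list, 3 passed the filter on low values: Tgm2, the GPR56 ligand (32.8 FPKM), Prnp, which encodes the prion protein that activates GPR126 (2.48), and Cd55, which encodes the CD97 ligand (0.102). The other 12, among them collagen, laminin, teneurin and FLRT genes, had means below 0.1 FPKM. Tgm2 was at 33.5 ± 2.81 FPKM in WT-F (SD, n = 4), 37.1 ± 5.05 in Het-F, 36.7 ± 3.58 in Homo-F and 33.6 ± 6.05 in WT-M (SD, n = 5 each), 28.8 ± 8.48 in Het-M (SD, n = 6) and 27.7 ± 4.47 in Homo-M (SD, n = 5). It passed no test against WT, with log2 differences of -0.33 (standard error 0.19, adjusted p = 0.417) in Het-M and -0.35 (standard error 0.20, adjusted p = 0.282) in Homo-M by limma.

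Over the 30 libraries Tgm2 had a Spearman correlation of 0.888 with Adgrg1 (Pearson 0.948), of 0.772 with Adgre1 (Pearson 0.930) and of 0.139 with Adgre4. In early against late numbered male mice it fell by 0.61 in log2 units (standard error 0.19, adjusted p = 0.0494 by limma), where 7.42% of all genes were called, and this call was lost in 9 of 11 fits with 1 library left out, all but those without Het-M-0203 or Homo-M-0097. Prnp (0.40, standard error 0.29, adjusted p = 0.342) and Cd55 (0.14, standard error 0.40, adjusted p = 0.822) were not called there by limma.

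All 9 genes of the signalling list, which holds G protein subunits and the guanine nucleotide exchange factors of the G12 and G13 pathway, passed the filter. Gnas (242 FPKM), Rhoa (164), Gna12 (162) and Arhgef1 (127) were the highest. Against WT, 0 of the 9 were called by limma in any of the 4 comparisons, with 1, 1, 0 and 0 at an unadjusted p below 0.05 in Homo-M, Het-M, Homo-F and Het-F. Over all genes 1.81%, 0.154%, 0.071% and 0.13% were called in those comparisons. Of the 16897 genes, 3793, 2393, 589 and 668 had an unadjusted p below 0.05 there. Between early and late male mice 3 of the 9 were called, where 7.42% of all genes were called. Gnas fell by 0.69 (standard error 0.18, adjusted p = 0.0333), Rhoa, the GTPase downstream of GPR56, fell by 0.60 (standard error 0.12, adjusted p = 0.0221), and Arhgef1 rose by 0.71 (standard error 0.16, adjusted p = 0.0243 by limma). With single libraries left out, the calls of Gnas, Rhoa and Arhgef1 were lost in 9, 7 and 6 of 11 fits.

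Of the 24 adhesion GPCR genes outside the 6 described, 4 were in the fit, and 0 were called by limma against WT in any Cre-positive group, where 1.81% of all genes were called in Homo-M, 0.154% in Het-M, 0.071% in Homo-F and 0.13% in Het-F. At an unadjusted p below 0.05 there was 1 in Homo-M and 1 in Het-F, in both cases Adgrg5, and none in the other groups. Of all genes, 3793 had such a p in Homo-M and 668 in Het-F. Adgrg5, with a mean of 0.182 FPKM, was higher than WT, by 0.90 in Homo-M (adjusted p = 0.201 by limma), 0.48 in Het-M, 0.37 in Homo-F and 0.93 in Het-F. It was also higher in early than in late male mice, by 0.93 (adjusted p = 0.0552 by limma). Adgra3 differed from WT by -0.30 (standard error 0.18, adjusted p = 0.334) in Homo-M, -0.34 (0.17, 0.375) in Het-M, -0.11 (0.19, 1) in Homo-F and -0.22 (0.19, 1) in Het-F by limma. The medians over the 4 genes were 0.11, 0.33, 0.13 and 0.13, with those over all genes between 0 and 0.03.

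The tested protein-coding genes nearest to Adgre4 were read for comparison. On one side lie Pot1b, 37.4 kb away, Sult1c1 and Sgo1, and on the other Zfp119a, 11.2 kb away, Zfp959 and Zfp119b, 84.7 kb away. Zfp119b, a zinc finger gene, was called higher in Homo-M than in WT-M, by 0.80 (standard error 0.19, adjusted p = 0.0217 by limma), and none of the 6 was called in the other 3 comparisons with WT. The share of all genes called was 1.81% in Homo-M, 0.154% in Het-M, 0.071% in Homo-F and 0.13% in Het-F. Zfp119a differed by 0.58 in Homo-M (standard error 0.16, adjusted p = 0.0404), with a fold just under 1.5. The neighbour with the closest start, Pot1b, which encodes a telomere end-binding protein, differed by 0.57 in Homo-M (standard error 0.24, adjusted p = 0.152). None of the 6 was called lower in any of the 4 comparisons with WT. Pot1b was called higher in early than in late male mice, by 0.77 (standard error 0.20, adjusted p = 0.0332 by limma), where 7.42% of all genes were called. Zfp119a differed there by 0.44 (adjusted p = 0.0752) and Zfp119b by 0.13 (adjusted p = 0.621 by limma).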

How the data were processed

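RNA of sorted microglia was sequenced by the authors, who aligned reads to mm10 with OSA4, estimated abundance with RSEM and deposited FPKM; they left out samples that failed quality control. The 6 columns of the table that match no listed sample were not used. The authors' DESeq2 fit needs counts and was not repeated. FPKM were scaled by a median of ratios (genes averaging 1 or more), 0.1 was added, and log2 values of 16897 genes (mean at least 0.1) were fitted with limma 3.58.1 (R 4.3.3), all 6 groups together, with an intensity trend; number ranges were fitted in male Het and Homo mice with genotype as a term. The fit was tested on simulated data. Positions came from GENCODE M21, promoters from RefSeq. Absolute depth is unknown; relative depth came from value steps of 5168 low genes, and Adgre4 fragments from it after its values were seen. Mouse numbers mark separate mice.

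The 6 genes and all gene lists were chosen with earlier results of these data known. Genes named are the 6, list genes with a mean of at least 1 FPKM or a call, the 5 most alike to each, 3 neighbours on each side of Adgre4, Bin1 and Cx3cr1; marker genes, list genes near or below the filter and Adgrg6 libraries were named after their values were seen. Some genes that these rules name are not reported here. The pseudocount, filter, scaling, weighting, fit and libraries were varied as alternatives.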

Additional observations from a re-analysis of the deposited data

Results flagged for a closer look

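Adgrg6 (GPR126) is listed because a single library stood far from the others of its group, in 3 groups. After scaling between libraries it was at 0.0164 FPKM in the library Het-F-0220, 0.0230 in the library WT-M-0177 and 0.309 in the library Het-M-0210, and at 0 in all other libraries. In groups where all other values are 0, any value above 0 stands far from the rest. Of 33 sets of receptor values by group, these 3 alone had such a library. The flag was fixed in advance for these 3, so the usual chance rate of about 1 in 20 does not apply to them. The source of the Adgrg6 fragments was not tested.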

How the results depend on the processing

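Every alternative kept the sign of the 4 Adgre4 differences from WT. With single libraries left out they ranged from -1.28 to -0.92 in Het-F, -1.10 to -0.74 in Homo-F, -0.70 to -0.47 in Het-M and -0.90 to -0.53 in Homo-M. The smallest under other settings came with a pseudocount of 1, at -0.71, -0.61, -0.38 and -0.43. The count of other adhesion GPCR genes called against WT stayed at 0 in every setting.

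Between early and late male mice, 1 receptor was called. The count was 2 with a pseudocount of 1, with only genes averaging 1 FPKM or more, and with array weights. It was 0 with no filter beyond 1 library above 0, without scaling, with quantile normalization and without the libraries labelled Het-F-0206 and Het-M-0199. Without single libraries it ranged from 0 to 2. The cause was not tested. In the other tested comparisons the count stayed at 0.

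No paired analysis was possible because the groups share no mouse number.

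FPKM carry no read totals, so tests weigh libraries of different depth alike unless array weights are used. Adgre5 had standard errors of 0.47 to 0.52 in log2 units between 2 groups, Adgrg6 was not in the fit, and with 12 to 160 fragments Adgre4 has a counting error close to the spread of Het-M. The loss of Bin1 and the Cre allele cannot be told apart against WT. Homo-M with late numbers is 2 libraries.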
